A study of Arabidopsis thaliana with 26 samples.

Results

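The genes described here share a trough: in developing leaves of Arabidopsis thaliana their transcripts had a lower mean signal at 12 h of treatment than at every other time sampled. The members were selected on these measured values. Among probe sets with a mean signal of at least 60 in developing leaves at 24 h, a score was taken as the lowest log2 group mean of the other 5 developing times minus the 12 h mean, and the 200 highest scores were kept. From these, 7 probe sets were left out: LHCB4.2, CaS and CYP71B26 by name, and 4 recognised by locus as ribosomal protein genes. This left 193 of the 22746 probe sets on the array, controls not counted. Other ribosomal protein genes may remain among the 193, under a locus code or with no listed gene. Of the 193 members, 70 were annotated with exactly 1 gene and represent 69 genes, 1 with several genes, and 122 were not listed in the annotation used here. Of the 69 genes, 11 have a symbol and 58 a locus code in its place. Roles are given for the 11 and for NPF6.4 and CURT1D, which are synonyms of locus codes.

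All plants were the accession Col-0 (stock N1092), grown in a growth room on Humax compost under a 10 h day, at 50% humidity and 20 °C. The series title names their treatment as elevated CO2 with ambient light, while the sample labels give the atmosphere as normal. RNA of developing leaves at insertions 19 to 21 was taken at 2, 4, 12, 24, 48 and 96 h (4 arrays each), and RNA of mature leaves of treated plants at 24 h (2 arrays), which gave 26 arrays of the short-oligonucleotide ATH1 design in 7 groups. No array of untreated plants was used here, so nothing below measures the effect of CO2. Neither the leaves that were themselves exposed nor the clock time of any harvest is stated in the labels, so hours of treatment and time of day cannot be told apart.

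Many leaf transcripts cycle over the day, driven by light and by the circadian clock, among them genes of nitrogen and sulfur metabolism, of photosynthesis and of ribosome production. Nitrate taken up by the root reaches the leaf through transporters such as those of the NPF family, and sulfur is carried in methionine, which oxidation damages and dedicated reductases repair. Young leaves import sugar and build ribosomes and chloroplasts, whereas mature leaves export sugar.

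Median signals lay between 39.7 and 47.4 on the 26 arrays, and replicates of a group correlated at between 0.956 and 0.987 over probe sets. The first replicates at 24 h and at 48 h stood apart in their control spots: the cre spike-in read 6451 and 6745 against a median of 2356 over all arrays, and a probe set for 25S ribosomal RNA read 4449 and 1571 against a median of 67.8. That probe set also read 1536 and 434 on the first and the third replicate at 96 h. The 12 h arrays, which define the trough, stood apart in control probe sets for GAPDH: all 4 lay below the 22 other arrays in 4 of the 5 GAPDH sets examined, for example at 1201 to 1327 against 1456 or more in the set for the middle of the transcript. Actin control sets of the 12 h arrays overlapped those of the others. The part of this in the members' low 12 h signals was not tested. Of 23 markers of leaf cell types, 4 were listed. RCA, which encodes Rubisco activase of the mesophyll, was between 2452 and 4062 in all 7 group means. In bulk leaf RNA, fewer cells of a type and less RNA per cell cannot be told apart.

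The scores, in log2 units, ran from 0.63 to 5.42 with a median of 0.90, while the median score over all 9562 probe sets at or above the floor at 24 h was -0.21. A score of at least 1 was found for 78 members and of at least 2 for 14. The mean signal of the members at 12 h ran from 1.8 to 1927 with a median of 84.3, and at 24 h from 60.6 to 4857 with a median of 300.5. In 180 of the 193 members (93.3%) all 4 arrays at 12 h lay below all 20 other developing arrays, as they did in 3.21% of all probe sets tested. The rule chose the members for this difference, so these values describe the choice. The edge was gradual: AT3G05060, AT5G05990 and AT5G45650 were just inside with scores of 0.633, 0.633 and 0.630, and AT3G19680, AT3G57000 and NIH just outside with 0.626, 0.624 and 0.624.

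The course outside 12 h is given as a description, since the score used the lowest of these means and the floor the 24 h mean. Tests between these times, for single genes and for counts of members, are read with that limit wherever they are given below. With 12 h left out, the lowest mean fell at 4 h in 118 of the 193 members (61.1%), against 30.1% of all probe sets at or above the floor. The highest mean fell at 96 h in 88 members (45.6%, against 26.9%) and at 24 h in 42 (21.8%, against 15.1%). Expressed against each member's own 24 h mean, the members' median log2 difference was -0.17 at 2 h, -0.34 at 4 h, -1.46 at 12 h, -0.04 at 48 h and 0.07 at 96 h. The range of the 5 other times was under 1 log2 unit in 137 members (71.0%, against 91.9% of all at or above the floor), and its median was 0.68 against 0.36. Outside 12 h the members' means thus ranged more widely than those of most probe sets.

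**Figure D1:**
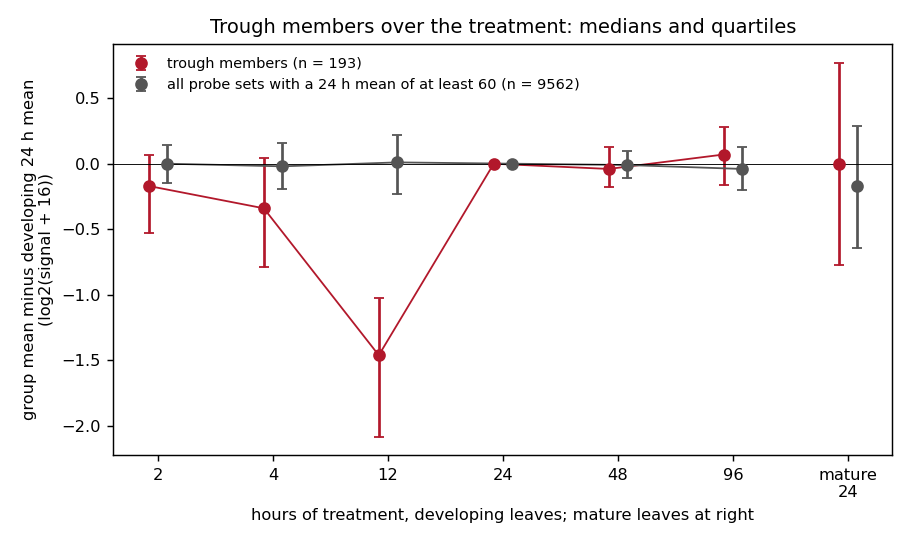
Median (points) and quartiles (bars) of the log2 difference of each probe set's group mean from its own mean in developing leaves at 24 h, for the 193 members and for all 9562 probe sets at or above the floor. The members' median was -0.17 at 2 h, -0.34 at 4 h and -1.46 at 12 h, and in mature leaves it was 0.00 with quartiles at -0.77 and 0.77.

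**Figure D2:**
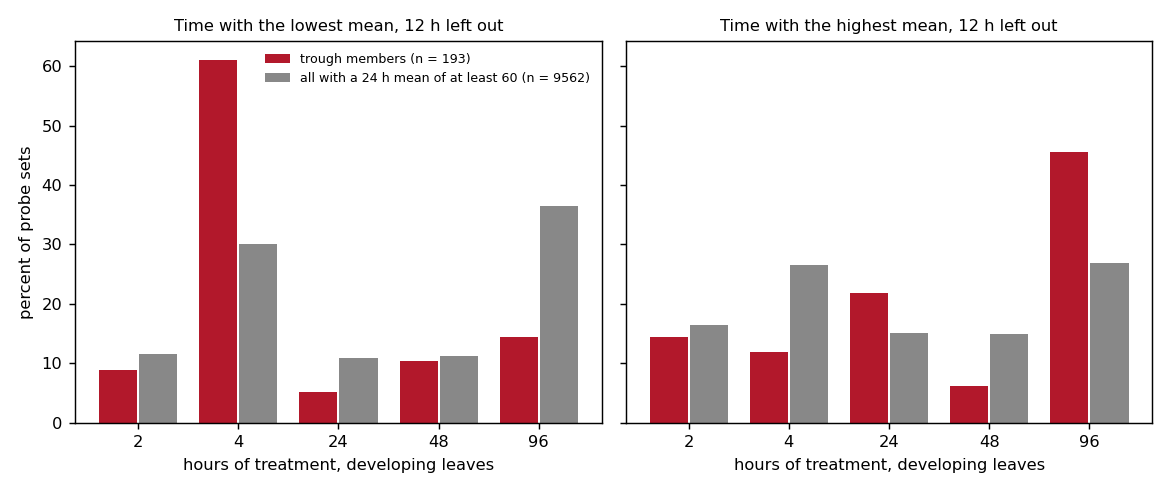
Percent of probe sets whose lowest mean (left) or highest mean (right) fell at each developing time when 12 h was left out, for the 193 members and for all 9562 probe sets at or above the floor. The members' lowest mean fell at 4 h in 61.1% and their highest at 96 h in 45.6%.

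The deepest trough belonged to a probe set with no listed gene, singled out here after its values were seen. It read 1832, 1899, 1744 and 1799 at 2 h, and 25.7, 5.83, 6.25 and 24.8 at 12 h. It was back at 4058, 1984, 2529 and 2457 at 24 h, where its mean was 176-fold the 12 h mean. The 12 h values lay below the median signal of their arrays, and all 20 other developing arrays were at 1065 or more. Among members with 1 gene, AT1G13650 had the highest score, 2.39, with signals of 1.88, 11.8, 1.04 and 2.42 at 12 h and of 175, 143, 144 and 144 at 24 h. The lowest of its other developing arrays read 72.4, at 4 h.

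NPF6.4 (AT3G21670), a member of the NRT1/PTR family of nitrate and peptide transporters, was the gene of highest score with an assigned name. Its signals were 341, 375, 402 and 339 at 2 h, then 188, 268, 213 and 213 at 4 h, and 54.9, 46.4, 20.4 and 36.7 at 12 h. They were 489, 545, 516 and 513 at 24 h, then 388, 530.5, 598 and 580.1 at 48 h, and 888, 546, 692 and 677 at 96 h. The 4 h arrays stood between those of 2 h and 12 h with no overlap on either side. In limma's fit over all probe sets, NPF6.4 fell from 2 h to 4 h by 0.69 ± 0.16 (SE) on the log2 scale (adjusted p = 0.014), a call lost without replicate 1 at 4 h (adjusted p = 0.062) or replicate 3 at 2 h (adjusted p = 0.063). Its 4 h mean was the lowest outside 12 h and entered the score, so that test is not independent of the rule. In mature leaves NPF6.4 read 916 and 1035, above every developing array at 24 h, a rise of 0.90 ± 0.19 (adjusted p = 3.0e-04).

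The NPF family had 11 probe sets tested, of which NPF6.4 was the only member of the trough. NPF6.2 (AT2G26690), a leaf-stalk nitrate transporter of Arabidopsis, did not reach the rule's score because it was low at 2 and 4 h as well. Its group means were 80.5 ± 18.7 (SD, n = 4) at 2 h, 55.4 ± 8.2 at 4 h, 42.9 ± 12.2 at 12 h and 201 ± 27.9 at 24 h. At 12 h it was lower than at 24 h, with a log2 change of -1.89 ± 0.15 (adjusted p = 1.2e-10), and in mature leaves it was higher by 1.41 ± 0.19 (adjusted p = 2.8e-07). GTR2, which imports glucosinolates, moved the other way at 12 h, with a log2 change of 0.60 ± 0.12 (adjusted p = 2.6e-04). GTR1, with the same function, changed by 0.10 ± 0.12 (adjusted p = 0.61). Over the 10 NPF genes outside the trough, 1 was higher and 1 lower at 12 h than at 24 h, beside 16.2% higher and 13% lower over all probe sets tested. In mature leaves 6 of all 11 were higher than in developing leaves at 24 h, beside 24.1% of all probe sets tested, and the median log2 change was 0.67, against -0.10 over all tested.

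MSRB6 and MGL act on methionine. MSRB6, a methionine sulfoxide reductase that reduces oxidised methionine in proteins, read 242, 376, 279 and 245 at 2 h and 89.8, 78.1, 54.7 and 52 at 12 h. At 24 h it read 475, 353, 308 and 336, and at 96 h 757, 598, 677 and 567. The 12 h arrays were the lowest of the developing series and the 96 h arrays lay above all arrays of 24 h. MSRB6 rose from 24 h to 96 h by 0.80 ± 0.15 log2 units (adjusted p = 5.7e-04). In mature leaves it read 159.6 and 171, below all developing arrays except those at 12 h, and it was lower than in developing leaves at 24 h by a log2 change of -1.06 ± 0.18 (adjusted p = 1.9e-05).

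MSRB5, the gene next to MSRB6 in the order of the TAIR10.1 gene table, was no member. It moved the other way at 12 h and in mature leaves. Its group means were 24.5 ± 7.92 (SD, n = 4) at 2 h, 127 ± 38.4 at 12 h and 58.4 ± 16.5 at 24 h. From 24 h to 96 h the means of both genes rose, to 89.7 ± 29.9 for MSRB5 and to 649.8 ± 85.4 for MSRB6. MSRB5 was higher at 12 h than at 24 h by 0.93 ± 0.21 log2 units (adjusted p = 0.0012). In mature leaves it was higher than in developing leaves at 24 h by 2.71 ± 0.26 (adjusted p = 8.4e-10). MSRB3, 2 genes from MSRB5, changed by 0.12 ± 0.13 at 12 h (adjusted p = 0.5), and MSRB9 by 0.27 ± 0.21 (adjusted p = 0.37). Neighbouring genes of 1 family thus had their lowest signals at different times. Probe sets of near-identical genes can cross-hybridise, which was not tested.

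MGL encodes methionine gamma-lyase, which breaks methionine down. It read 71.5, 58.5, 63.2 and 74.2 at 2 h, then 27.9, 29.8, 30.9 and 50.9 at 4 h, and 10.7, 11.1, 11.7 and 21.2 at 12 h. At 24 h it read 215, 131, 137 and 151, above all earlier arrays. MGL fell from 2 h to 4 h by 0.72 ± 0.14 log2 units (adjusted p = 0.0033) and was higher at 24 h than at 2 h by 1.05 ± 0.14 (adjusted p = 1.3e-05). Its 4 h mean was the lowest outside 12 h and entered the score, and the floor used its 24 h mean. In mature leaves, at 44.7 and 35.6, MGL was below every developing array at 24 h, with a log2 change of -1.61 ± 0.17 (adjusted p = 8.2e-09).

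NRPA1 and NRPA2 encode the largest subunits of RNA polymerase I, which makes the precursor of ribosomal RNA, and YAO encodes a nucleolar protein of ribosome production. NRPA1 read 40.3, 57.5, 64.3 and 44.2 at 12 h against 87.1, 148, 154 and 146 at 24 h. NRPA2 read 119.5, 123, 145 and 136 against 230.4, 302, 285 and 299.9, and YAO 124, 105, 118 and 133 against 195, 199, 222 and 227. The 12 h arrays lay below the others without overlap in all 3 genes. In mature leaves the levels lay within or below the range of the 12 h arrays: 48.5 and 48.4 for NRPA1, 129 and 136 for NRPA2, and 74 and 80.9 for YAO.

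Against developing leaves at 24 h, mature leaves were lower in NRPA1 by a log2 change of -1.19 ± 0.21 (adjusted p = 2.2e-05), in NRPA2 by -0.99 ± 0.12 (adjusted p = 1.2e-07) and in YAO by -1.28 ± 0.13 (adjusted p = 1.8e-09). NRPA2 also fell from 24 h to 96 h, by 0.34 ± 0.10 (adjusted p = 0.021), while NRPA1 changed by -0.40 ± 0.17 (adjusted p = 0.12). The subunits of RNA polymerase III, which makes transfer RNA, did not pass the test at 12 h against 24 h: NRPC1 changed by -0.06 ± 0.15 (adjusted p = 0.82) and NRPC2 by -0.16 ± 0.13 (adjusted p = 0.36). Both had higher means at 4 h, 45.1 ± 6 (SD, n = 4) for NRPC1 and 111 ± 14.2 for NRPC2. At 12 h the means were 24 ± 6.84 and 71.4 ± 12.5, and at 24 h 25.7 ± 8.21 and 82.8 ± 21.4. NRPC1 was thus under the lowest array median, 39.7, at 12 h and 24 h. In mature leaves NRPC2 was lower by a log2 change of -0.73 ± 0.15 (adjusted p = 2.4e-04). Of 7 genes grouped by name under RNA polymerases II, IV and V, 1 was higher and 2 lower at 12 h, and 4 were lower in mature leaves. Grouping by name did not separate subunits that polymerases share. Over all probe sets tested, 16.2% were higher and 13% lower at 12 h, and 30.7% lower in mature leaves.

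CURT1D (AT4G38100), which shapes the curved edges of thylakoid membranes in chloroplasts, was the sole member among 14 tested genes of the photosystems, electron transport and the Calvin cycle. Its signals were 134, 156, 130.3 and 136 at 12 h and 284, 358, 256 and 304 at 24 h. The other developing arrays lay between 239.6 and 402. In mature leaves it read 129 and 115, below all 12 h arrays, and was lower than at 24 h in developing leaves by a log2 change of -1.19 ± 0.12 (adjusted p = 1.9e-09). Its relatives CURT1A (AT4G01150) and CURT1C (AT1G52220) were lower at 12 h than at 24 h by log2 changes of -0.50 ± 0.15 (adjusted p = 0.012) and -0.78 ± 0.16 (adjusted p = 3.5e-04). Neither passed the test in mature leaves, where they changed by -0.06 ± 0.18 (adjusted p = 0.81) and 0.40 ± 0.19 (adjusted p = 0.077).

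Of the 13 photosynthesis genes not among the members, 11 were lower and 1 higher at 12 h than at 24 h. Their median log2 change was -0.55. Over all probe sets tested, 13% were lower and 16.2% higher. LHCB4.2, counted here, had a score of 1.79, within the highest scores kept, and was left out of the members by name only. The rule had thus chosen it for a low 12 h mean, so its part in these values is a description and no test. PSBY, a small subunit of photosystem II, was lower by a log2 change of -0.75 ± 0.13 (adjusted p = 6.2e-05), and TAPX, the thylakoid ascorbate peroxidase, by -0.63 ± 0.09 (adjusted p = 3.7e-06). LHCB4.3, an antenna protein, was the higher one, by 0.61 ± 0.11 (adjusted p = 1.5e-04).

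**Figure D3:**
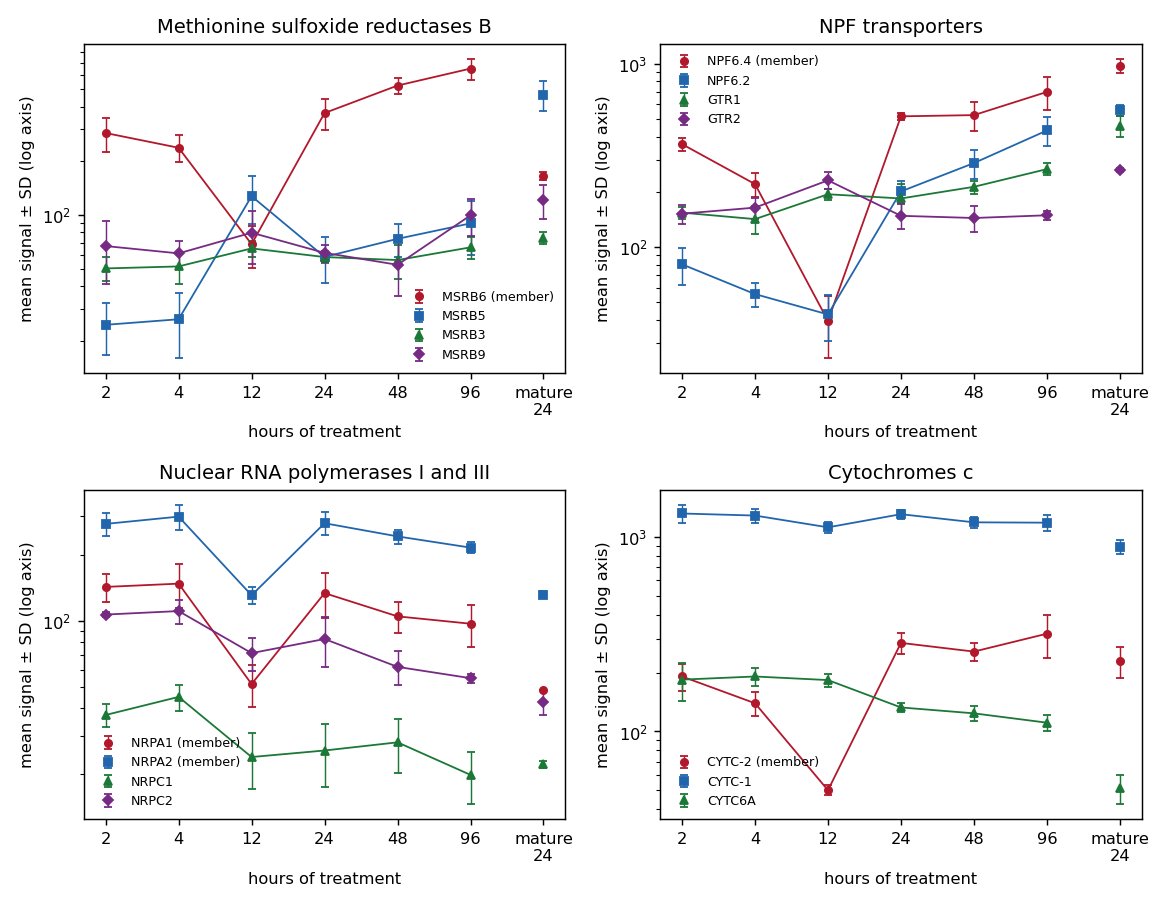
Mean signal ± SD (log axis; 4 arrays a time, 2 for mature leaves) of 4 members' families over the hours of treatment. MSRB6, NPF6.4, NRPA1, NRPA2 and CYTC-2 are members; MSRB5 was higher at 12 h than at 24 h, and NPF6.2 was low from 2 h to 12 h.

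CYTC-2 encodes a cytochrome c, the mobile electron carrier of the mitochondrial respiratory chain. It read 189.8, 157, 233 and 189 at 2 h, then 51.6, 46.9, 47.7 and 52.9 at 12 h, and 291, 236, 299.9 and 315 at 24 h. The 12 h arrays were tight and far below all others. CYTC-2 was higher at 24 h than at 2 h by 0.54 ± 0.13 log2 units (adjusted p = 0.0091), and in mature leaves, at 201 and 260.4, it changed by -0.29 ± 0.16 (adjusted p = 0.14). Its paralogue CYTC-1 changed by -0.22 ± 0.09 at 12 h against 24 h (adjusted p = 0.072), and the plastid cytochrome gene CYTC6A was higher by 0.42 ± 0.11 (adjusted p = 0.0044).

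Members with roles in stress and defence differed in what mature leaves showed. TIL, a temperature-induced lipocalin that protects membranes, read 267, 329, 331 and 276 at 12 h and between 567 and 785 on all other developing arrays. In mature leaves it rose to 1057 and 937, by 0.62 ± 0.11 log2 units (adjusted p = 2.0e-05). GSTU20, a tau-class glutathione transferase, which conjugates glutathione to reactive compounds, read 380.3, 432, 432 and 295 at 12 h and 625, 713, 568 and 558 at 24 h. It rose from 24 h to 96 h by 0.51 ± 0.15 (adjusted p = 0.02) and was higher in mature leaves, at 1393 and 1631, by 1.28 ± 0.18 (adjusted p = 1.1e-06).

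THI2.2, a thionin, one of the small antimicrobial peptides of plants, varied widely between replicates. It read 37.6, 9.24, 16.7 and 37.1 at 12 h and 87.2, 178, 149.8 and 142 at 24 h, but replicate 1 at 48 h, at 30.7, fell within the 12 h range. In mature leaves its 2 arrays read 29.5 and 93.5, and the log2 change was -1.10 ± 0.40 (adjusted p = 0.021). Hop2, a co-chaperone that links heat shock chaperones, read 125, 115, 137 and 154 at 12 h and 239, 300.3, 246 and 333 at 24 h. Its change in mature leaves was -0.37 ± 0.17 (adjusted p = 0.06). Of its relatives, Hop3 was lower at 12 h than at 24 h by a log2 change of -0.59 ± 0.17 (adjusted p = 0.0095) and Hop1 changed by -0.23 ± 0.09 (adjusted p = 0.067). Hop3 was dim, with means of 9.74 ± 1.57 (SD, n = 4) at 12 h and 23.5 ± 10.5 at 24 h. Both lay under the lowest array median, 39.7. No chaperone of the fixed list of 12 tested genes was a member. That list matched genes by locus or by name, so it could miss chaperone genes known only by a locus code. Most members had only a locus code or no listed gene, so the list cannot show that chaperones were absent among them.

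The sole member among 47 tested transcription factor genes of the fixed list was bHLH34, of the basic helix-loop-helix family. It read 59.9, 66.7, 56.4 and 71.2 at 12 h and 172, 227, 115 and 108 at 24 h, and no other developing array was below 91.3. Of the other 46 genes, 9 were higher and 4 lower at 12 h than at 24 h, and of 48 cell wall genes, none a member, limma called 4 higher and 10 lower. Both are read against 16.2% higher and 13% lower over all probe sets tested. AT5G12110, entered by its locus on the list of translation factors, read 50.0, 56.3, 43 and 46.2 at 12 h and 723, 988, 629.7 and 585 at 24 h. Its values at 2 h, 214, 195, 227 and 235, lay well under those at 24 h, a rise of 1.65 ± 0.14 log2 units (adjusted p = 1.1e-08).

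**Figure D4:**
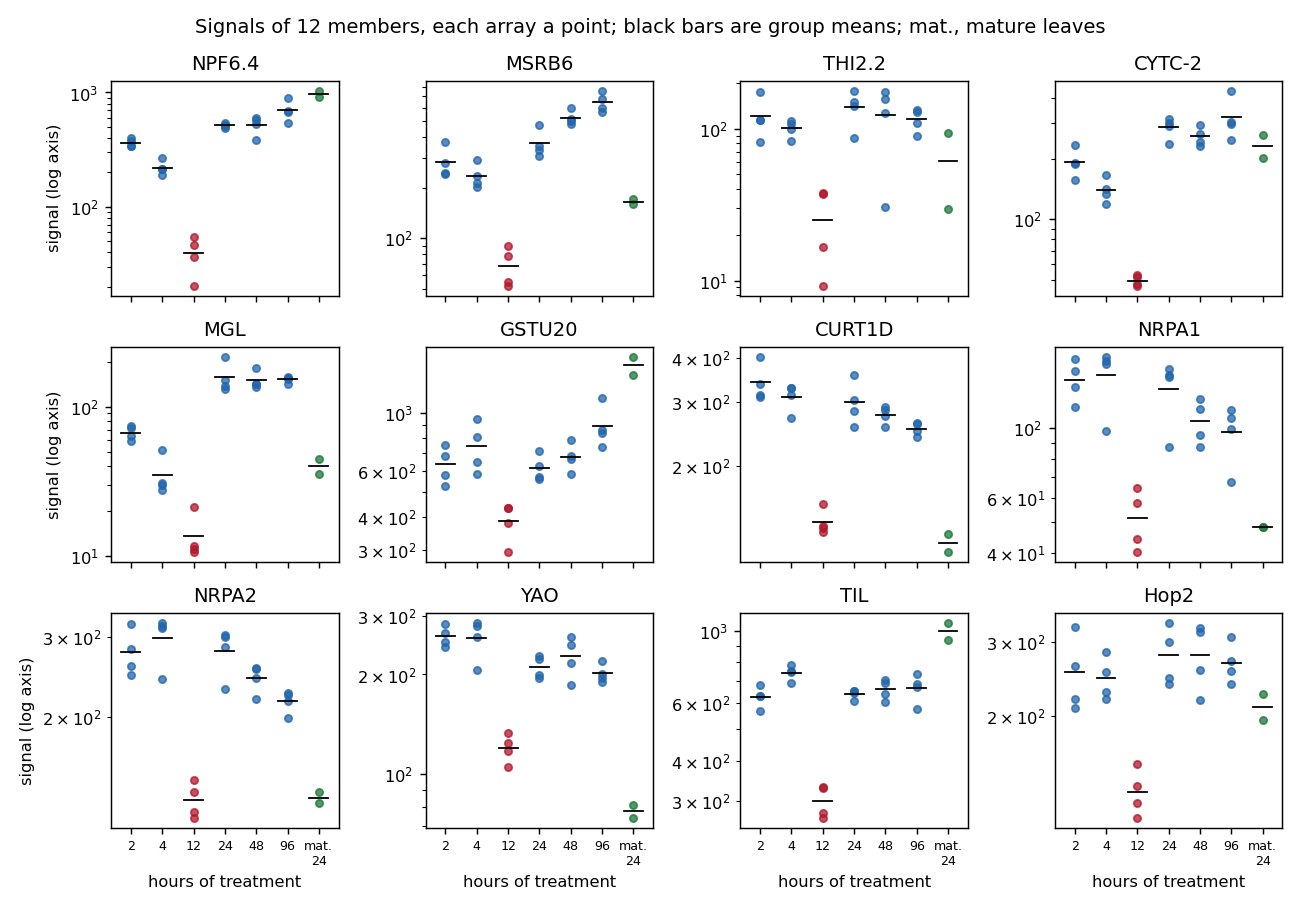
Signal of 12 members on each of the 26 arrays (log axes), by hours of treatment; red points are 12 h, blue points the other developing times, green points mature leaves, and black bars the group means. In CURT1D, NRPA1, NRPA2 and YAO the mature arrays lie near or below the 12 h arrays, while in NPF6.4, GSTU20 and TIL they lie above most or all developing arrays.

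Mature leaves gave a comparison on arrays that the rule had not used, although the 24 h developing arrays set the floor and entered the score. Members were called in both directions there, as were probe sets at large. Of 193, limma called 73 higher in mature than in developing leaves at 24 h (37.8%, against 24.1% of all probe sets tested) and 69 lower (35.8%, against 30.7%). Among the probe sets at or above the floor, 22.7% were higher and 39.7% lower, so the members' share of lower calls was below theirs. The members' median log2 change was 0.00, against -0.10 over all tested, with a range from -3.80 to 4.06. The mature mean lay below the 12 h mean in 29 members (15.0%), between the 12 h and 24 h means in 67 (34.7%) and above the 24 h mean in 97 (50.3%). These shares were not counted over all probe sets. The rule had chosen low 12 h means, so the shares that use them are a description only. As log2 differences from the developing 24 h mean, the quartiles in mature leaves were -0.77 and 0.77 for the members. Over all probe sets at or above the floor they were -0.64 and 0.29. Of the 70 members with 1 gene, 25 were higher and 34 lower.

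Beside these calls, 3 of the 4 listed markers of cell types differed in level between leaf ages. SWEET11, a sucrose exporter of phloem parenchyma, had a mean of 109 in developing leaves at 24 h and read from 611 to 641 in mature leaves. TRY, a regulator of trichome spacing, went from 58.9 to 127, and FMA, a regulator of guard cells, from 60.6 to 35.7. RCA had means of 4062 and 3905. Their part in the members' differences was not tested.

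The largest rise of any member in mature leaves, 4.06 log2 units, was that of a probe set with no listed gene. Among members with 1 gene, to which the following order is limited, AT1G73600 rose most. It read 62.8, 87.4, 94 and 65.3 at 12 h, then 275, 262, 223 and 299.5 at 24 h, 919.9, 758, 846 and 873 at 96 h, and 2046 and 2031 in mature leaves. The groups stood in that order without overlap, a rise of 2.88 ± 0.15 log2 units from developing to mature leaves at 24 h (adjusted p = 1.2e-14) and of 1.63 ± 0.13 from 24 h to 96 h (adjusted p = 3.4e-09). AT3G44450 followed, with 151, 139, 113 and 168 in developing and 615 and 523 in mature leaves, a rise of 1.89 ± 0.15 (adjusted p = 4.9e-11). AT5G35970 rose by 1.85 ± 0.13 (adjusted p = 2.5e-12), AT4G13010 by 1.31 ± 0.13 (adjusted p = 2.9e-09) and AT5G57345 by 1.29 ± 0.13 (adjusted p = 2.2e-09).

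At the other end of the members with 1 gene stood AT5G62210, at 420.1, 554, 451 and 536 in developing leaves at 24 h and at 23.7 and 16.9 in mature leaves, a log2 change of -3.80 ± 0.33 (adjusted p = 2.0e-10). Its trough was shallow beside this: it read 96.8, 278, 161 and 133 at 12 h, which overlaps the lowest array at 2 h (179) and at 4 h (177). AT5G48490 read 1414, 969, 1508 and 1176 in developing leaves at 24 h and 91.7 and 66 in mature leaves, beside a 12 h mean of 184 ± 14.7 (SD, n = 4), a log2 change of -3.75 ± 0.15 (adjusted p = 2.7e-17). The mature arrays of both genes lay below all their developing arrays. Next in order among members with 1 gene, AT4G02850 changed by -2.51 ± 0.14 (adjusted p = 1.8e-14), AT1G54050 by -2.48 ± 0.15 (adjusted p = 2.7e-13) and AT3G28220 by -2.11 ± 0.24 (adjusted p = 2.1e-08).

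**Figure D5:**
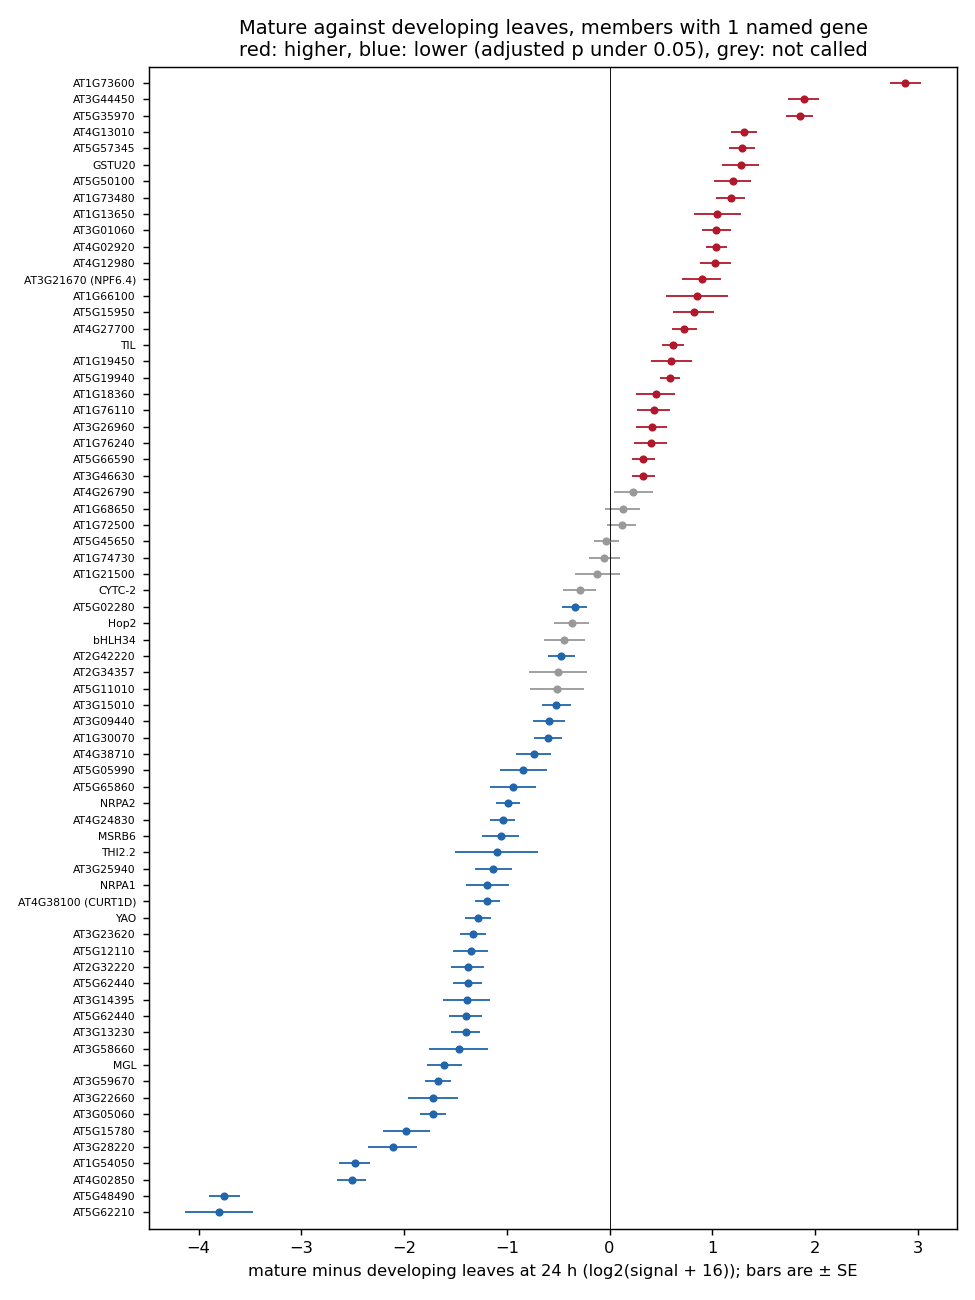
Log2 difference ± SE of mature from developing leaves at 24 h for the 70 members with 1 gene, in order of size; red and blue mark those called higher (25) and lower (34), grey those not called. AT1G73600 stands at 2.88 and AT5G62210 and AT5G48490 at -3.80 and -3.75.

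Set against developing leaves at 96 h, mature leaves had 55 members higher (28.5%, against 19.4% of all tested) and 67 lower (34.7%, against 24% of all tested). Of the probe sets at or above the floor, 17.9% were higher and 32.7% lower, so the share of lower calls was close to theirs. This comparison shares the mature arrays with the one above, and its values for the members with 1 gene named by the rule are given only beside it. AT1G73600, AT5G35970 and AT3G44450 were higher by 1.25 ± 0.15, 1.15 ± 0.13 and 1.10 ± 0.15 log2 units. AT5G62210, AT5G48490 and AT4G02850 were lower, with log2 changes of -3.96 ± 0.33, -3.51 ± 0.15 and -2.62 ± 0.14. The largest adjusted p among these 6 genes was 1.2e-06.

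Among the 5 other developing times the rule used the lowest mean and set a floor at 24 h, but it set no order, and the following comparisons are read with that limit. Between 24 h and 96 h in developing leaves, 30 members rose (15.5%, against 7.74% of all tested) and 9 fell (4.7%, against 7.23% of all tested). Of the probe sets at or above the floor, 7.93% rose and 10% fell. Without replicate 2 at 24 h the count of risers was 17, and without replicate 1 at 24 h the count of those that fell was 16. Among members with 1 gene, AT1G73600 and MSRB6 were followed by AT3G44450, which rose by 0.78 ± 0.13 log2 units (adjusted p = 1.0e-04). Those with 1 gene that fell most were AT1G54050, by 0.55 ± 0.13 (adjusted p = 0.0039), AT3G13230, by 0.44 ± 0.12 (adjusted p = 0.011), and AT3G05060, by 0.36 ± 0.11 (adjusted p = 0.023). The call of AT3G05060 was lost without replicate 2 or 3 at 24 h or replicate 1 or 2 at 96 h, with adjusted p between 0.058 and 0.079. Between 24 h and 48 h limma called 0 members higher and 0 lower (0% of all tested in both directions).

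From 2 h to 24 h, times on either side of the trough, 54 members rose (28.0%, against 4.33% of all tested) and 11 fell (5.7%, against 4.88% of all tested). Of the probe sets at or above the floor, 6.53% rose and 5.71% fell. Without replicate 1 at 24 h the fallers numbered 5, and without replicate 3 at 2 h they numbered 6. The largest rise, 1.97 log2 units, was that of a probe set with no listed gene. Among members with 1 gene AT5G12110 rose most. AT1G66100 followed, with 525, 417, 194 and 252 at 2 h and 1196, 716, 854 and 676 at 24 h, a rise of 1.33 ± 0.24 log2 units (adjusted p = 4.8e-04). AT3G09440 read 670.3, 755, 1022 and 934 at 2 h and 2047, 1721, 2261 and 2157 at 24 h, a rise of 1.27 ± 0.13 (adjusted p = 1.6e-07). In all 3 genes the 24 h arrays lay above the 2 h arrays, so the 2 sides of their trough were unequal.

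Among the members with 1 gene that fell from 2 h to 24 h, AT3G58660 changed by -0.79 ± 0.23 (adjusted p = 0.031) and AT3G25940 by -0.50 ± 0.15 (adjusted p = 0.028). Both calls were lost without replicate 1 at 24 h, with adjusted p of 0.15 and 0.099. For AT3G58660 the call was also lost without replicate 3 or 4 at 2 h or replicate 3 at 24 h, and for AT3G25940 without replicate 1, 2 or 3 at 2 h or replicate 2 at 24 h. AT5G62440 was read by 2 probe sets, both members. The first fell by 0.57 ± 0.13 (adjusted p = 0.0041), while the second changed by -0.16 ± 0.12 (adjusted p = 0.48). The pair had like troughs, with means of 57.6 and 93.8 at 12 h against 162 and 216 at 24 h, and like levels in mature leaves, 50.1 and 72.9.

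From 2 h to 4 h 23 members fell (11.9%, against 0.681% of all tested) and 1 rose (0.5%, against 1.36% of all tested). Of the probe sets at or above the floor, 1.1% fell and 1.37% rose. The lowest log2 change, -1.80, was that of a probe set with no listed gene. AT5G48490 fell most among members with 1 gene, from 755, 931, 801 and 862 to 572, 524, 458 and 437, by 0.74 ± 0.12 log2 units (adjusted p = 4.2e-04), ahead of MGL and NPF6.4. The groups did not overlap. AT1G73480 was the sole member that rose, from 70.2, 127, 106 and 110.2 to 137, 164, 138 and 139, by 0.45 ± 0.11 (adjusted p = 0.032). That call was lost without replicate 1 or 3 at 2 h, or without any 1 of the 4 replicates at 4 h, with adjusted p between 0.05 and 0.16.

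The other members named by their place among the 30 highest scores with 1 gene had 12 h means below those of their other times by at least 0.94 log2 units. AT3G28220 read 65.2, 78.7, 81.3 and 45.2 at 12 h and 405, 457, 560.2 and 552 at 24 h. AT3G01060 read 70.1, 72, 69.8 and 49.8 at 12 h and 347, 302, 396 and 379 at 24 h. AT3G14395 was dim throughout, at 4.94, 1.95, 2.2 and 1.06 at 12 h and 68.6, 54.6, 60.4 and 125 at 24 h. In each of these the 12 h arrays were below all others.

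Several of these genes were level outside the trough. AT2G42220 read 554, 473, 448 and 507 at 12 h and between 893 and 1305 on all other developing arrays. AT5G19940 read 409, 422, 372 and 399 at 12 h and between 708 and 1009 elsewhere. AT3G46630 read 108, 127, 113 and 119 at 12 h and between 239 and 369 elsewhere. These 3 had separate 12 h arrays and less than a 2-fold spread on the remaining developing arrays. In mature leaves AT2G42220 was lower by a log2 change of -0.47 ± 0.13 (adjusted p = 0.0027), while AT5G19940 and AT3G46630 were higher by 0.59 ± 0.10 (adjusted p = 7.6e-06) and 0.33 ± 0.11 (adjusted p = 0.0097).

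The 24 h mean was 2.97-fold the 12 h mean for AT1G21500, 3.91-fold for AT1G76240, 2.94-fold for AT3G59670 and 2.91-fold for AT4G12980. It was 2.56-fold for AT4G38710, 2.68-fold for AT1G72500 and 2.5-fold for AT3G26960. AT4G12980 lies 3 genes from AT4G13010, another member, and AT4G02850 lies 7 genes from AT4G02920, also a member, in the order of the TAIR10.1 gene table. The 69 genes lay on chromosome 1 (18 genes), 2 (3 genes), 3 (18 genes), 4 (12 genes) and 5 (18 genes). Chromosome 2 held 4.3% of them, against 14.4% of the annotated genes at or above the floor.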

How the data were processed

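Total RNA was biotin-labelled and hybridised to 1-colour ATH1 arrays, per the labels. The values are linear signal intensities, one per probe set, which the authors computed with MAS5 (version and genome build not given), per the submitters' processing notes. The deposited intensity columns all had a mean of 100 after trimming 2% of the values at either end, so they were not scaled again. Detection calls were not used here. The table held 0 columns of other samples.

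Groups came from the labels. Since the labels do not say whether replicates came from separate plants, p-values here may reflect technical spread alone. Values were taken as log2(signal + 16), which understates the changes of dim probe sets, and tests were run on the 16154 probe sets above the 40th percentile on 2 arrays or more. In R 4.3.3, limma 3.58.1 (lmFit, then eBayes with a trend in the variance) fitted 7 group means over 26 arrays. Adjustment by Benjamini and Hochberg ran over all probe sets tested, and an adjusted p under 0.05 was called. It was tested on simulated data first. All 193 members were tested. Contrasts with 12 h were described for the members and tested only for other genes, since the rule used 12 h. Group means and folds between them were taken on the linear signal.

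The members and the gene lists were chosen with earlier results of these data known. Families of the members (such as the NPF transporters) were drawn up after names and values had been seen. Genes were named if among the 30 highest scores with 1 gene, the 3 highest on any of 25 fixed lists, the extremes of each contrast, or the 3 on either side of the edge; YAO, Hop2 and the genes outside the trough were named aside from this rule, after values were seen. The thionin list caught genes through part of a word: MSRB6 and MGL stood on it because their synonyms contain methionine. Of 13513 probe sets with 1 gene in the platform annotation, 13436 matched the TAIR10.1 gene table, used for names and gene order only; several genes were given for 503. The 4 ribosomal protein genes were recognised by locus. Others may remain among the members, since the annotation gave no descriptions and 122 members were not listed in it. Promoter motifs were planned and not analysed here.

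Alternatives were other pseudocounts, filters, quantile normalization, array weights, only the 2 groups compared, the replicate number as a block, and leaving out arrays. Replicate numbers were not taken as pairs, since in no contrast did every same-numbered pair's deviations from the group means correlate above 0.1. They ran from -0.157 to 0.517, the highest being replicate 1 at 24 and 48 h. At 2 and 4 h 3 of 4 pairs passed (0.321, 0.138 and 0.3, with the other at 0.074).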

Additional observations from a re-analysis of the deposited data

Results flagged for a closer look

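For the members named by rule, 276 groups of 4 arrays were examined for a replicate whose gap to the nearest of the others exceeded Dixon's critical share of the group's range on the log2 scale, a limit that chance passes in about 1 in 20 groups; 20 replicates passed it. No explanation was weighed. Replicate 1 was the one apart in 10 of these. At 48 h it read 337 for AT3G28220 (the others 650.1 to 659), 1361 for AT1G21500 (670.0 to 720.4), 181 for MGL (136 to 142) and 1246 for AT1G66100 (999 to 1028). At 24 h it read 175 for AT1G13650 (143 to 144) and 87.1 for NRPA1 (146 to 154), on the array with a high spike-in signal. At 4 h it read 97.9 for NRPA1 (159.9 to 169), 242 for NRPA2 (314 to 322) and 22.2 for AT3G14395 (26.5 to 27.2), and at 2 h 319 for AT4G02850 (260.2 to 268).

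Replicate 4 stood apart at 12 h for AT3G01060, at 49.8 (69.8 to 72), and for MGL, at 21.2 (10.7 to 11.7). MGL also had a high replicate 4 at 4 h, 50.9 (27.9 to 30.9). At 4 h replicate 4 read 232 for AT5G62440 (248 to 249), at 48 h 1919.9 for AT3G09440 (1669.5 to 1687) and 287 for AT5G45650 (282), and at 96 h 110.4 for AT5G05990 (123 to 124). Replicate 2 read 11.8 for AT1G13650 at 12 h (1.04 to 2.42) and 164 for AT1G73480 at 4 h (137 to 139). Replicate 3 read 437 for AT3G05060 at 48 h (323 to 340.0).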

How the results depend on the processing

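In mature against developing leaves at 24 h, the count of members called higher lay between 61 and 79 and of those lower between 56 and 78 over all alternatives, including developing leaves at 48 h as the reference (67 and 62). Choosing the members again gave lists that shared 163 to 189 of the 193 under another pseudocount, normalization, floor or without the 2 arrays of high spike-in, and 177 to 193 when 1 array was left out. Counts of members that fell from 24 h to 96 h (9) moved to 20 with array weights, 18 without the 2 arrays of high spike-in signal, and 6 to 16 when 1 array was left out; those that rose (30) numbered 17 to 33 when 1 array was left out. From 24 h to 48 h array weights gave 9 higher and 6 lower where the fit with equal weights gave 0, and leaving out 1 array gave 0 to 2 higher and 0 to 1 lower. The members that fell from 2 h to 24 h (11) numbered 6 with only the 2 groups in the fit, 7 without the 2 arrays of high spike-in signal and 5 to 12 when 1 array was left out. From 2 h to 4 h the 1 riser became 0 with only the 2 groups in the fit, and 0 to 1 when 1 array was left out. The cause was not tested. With the replicate number as a block, 14 members fell from 24 h to 96 h 1 from 24 h to 48 h and 27 from 2 h to 4 h, and the mature comparison gave 73 higher and 70 lower; every other count of members stayed within 1.5 times of its value without the block. Of 32 results for named genes, 26 kept their call under all alternatives and 6 lost it in 28 of 522 trials; 0 changed sign, and the calls lost when 1 array was left out are given with the genes. AT5G62440 from 2 h to 24 h lost its call with only the 2 groups in the fit (adjusted p = 0.058). Detection calls were not used here, so how far the lowest 12 h signals stand above background is unknown, and 2 arrays limit the precision in mature leaves.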
